A study of Lathyrus oleraceus with 16 samples.

Results

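A set of 200 pea genes was followed whose read counts were high in arrested shoot apical meristems. At 24 h after removal of all fruits and flowers, their scaled counts were close to those in Pruned meristems, which had never arrested. The members were chosen from the measured values of 48559 gene IDs. Counts were divided by median-of-ratios size factors, and groups were compared on the scale log2(group mean + 10). A gene qualified with a mean of 20 or more normalized counts in Pruned, with Arrested higher than both Pruned and Proliferative by 2 or more on that scale, and with Reactivated within 0.3 of Pruned. These conditions were met by 224 genes, and the 200 with the largest difference between Arrested and Pruned were kept. All 200 passed the filter on low counts that left 23979 genes for testing.

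RNA-seq libraries, 4 for each of 4 groups, were made from meristems of pea (Pisum sativum, listed as Lathyrus oleraceus), wild-type cultivar Cameor, grown in a greenhouse with 16 h of light at 21.5 °C and 8 h of dark at 15 °C. Reactivated meristems were collected from arrested plants 24 h after their fruits and flowers had all been cut off. Arrested meristems, titled GPA in the labels, were collected as plants entered proliferative arrest. Pruned meristems, from the same day as Arrested, came from plants that had been pruned without interruption, had never sensed seeds and had kept an active meristem. Proliferative meristems were collected from young plants that had formed a first flower bud and had not reached anthesis. The labels name no mutant, transgene or applied chemical for any group. Apices were dissected by eye, so a library may hold some leaf or bud tissue, and the libraries are described as biological replicates with no word on how many plants each held.

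Pea is a monocarpic plant: it flowers and fruits in a single cycle and then dies. Its inflorescence meristem stops making flowers while seeds are filling, a state called proliferative arrest, and removing the fruits lets growth resume. In Arabidopsis, arrested inflorescence meristems are known to resemble dormant buds in their gene expression, with low activity of cell cycle genes and expression of genes linked to abscisic acid and stress. Whether genes of such pathways stand among the members could not be read, because the deposited table holds only IDs: of its 48559 IDs, 0 were found in the available RefSeq gene table. The IDs of 2 members are given, other members are described by their rank on Arrested minus Pruned, and no name, function, position or sequence is attached to any of them. For the same reason the tissue could not be checked against meristem, leaf or flower markers.

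Total counts ran from 16264221 to 24435174 per library, with overlapping ranges in the 4 groups. Size factors averaged 0.783 ± 0.076 in Reactivated, 1.20 ± 0.24 in Arrested, 1.05 ± 0.11 in Pruned and 1.08 ± 0.19 in Proliferative (SD, n = 4). The smallest raw count of a member in any library was 6 in Reactivated, 87 in Arrested, 4 in Pruned and 5 in Proliferative. The median of a member's smallest raw count within a group was 43.5 in Reactivated, 724.5 in Arrested, 51.5 in Pruned and 65.5 in Proliferative. Levels between genes are not compared, since no gene lengths were used and a count grows with length. In bulk tissue, a change in the number of cells of a type and a change in RNA per cell cannot be told apart.

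The members made up a small part of the reads outside arrest and a larger part in arrest. They held 0.169%, 0.167%, 0.180% and 0.165% of all counts in Reactivated libraries 1 to 4 and 1.83%, 2.44%, 2.34% and 2.31% in Arrested libraries 1 to 4. In Pruned libraries 1 to 4 the share was 0.213%, 0.215%, 0.234% and 0.202%, and in Proliferative libraries 1 to 4 it was 0.305%, 0.224%, 0.367% and 0.309%. Every Arrested library lay far above the other 12, and Arrested 1 was the lowest of the 4. The group means were 0.170% ± 0.0069 in Reactivated, 2.23% ± 0.27 in Arrested, 0.216% ± 0.013 in Pruned and 0.301% ± 0.059 in Proliferative (SD, n = 4). Without the 10 members with the highest Arrested counts the means were 0.0960% in Reactivated, 1.36% in Arrested, 0.126% in Pruned and 0.169% in Proliferative, so the pattern of the total was not carried by these 10 alone. The members were chosen for this pattern, and the shares describe it without a test.

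**Figure D1:**
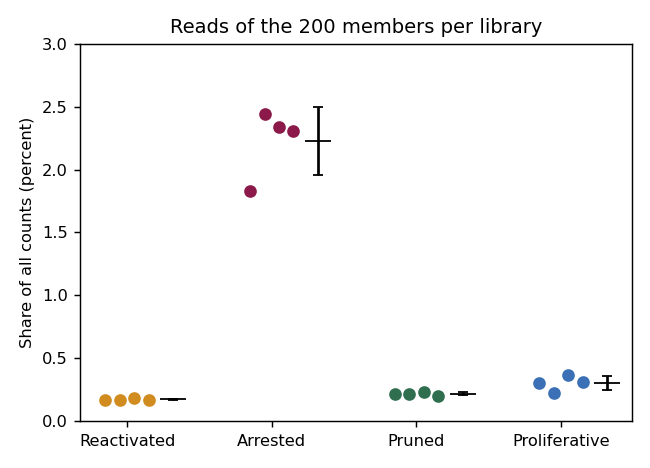
Share of all counts held by the 200 members in each library, in percent, with 1 point per library and, beside each group, the mean with bars of 1 SD (n = 4). The Arrested libraries lie between 1.83% and 2.44% and the other 12 between 0.165% and 0.367%.

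Arrested meristems stood above Pruned meristems in each of the 200 members, by 2.17 to 6.05 on the log2(mean + 10) scale with a median of 2.91. Above Proliferative the difference ran from 2.01 to 4.81 with a median of 2.59. In Reactivated the members lay below Arrested by 1.93 to 6.27, with a median difference of -2.97. All 4 Arrested libraries lay above all 4 Pruned libraries in 200 members, as in 30.3% of all genes tested, and above all 12 other libraries in 199 members, as in 22.9% of all genes tested. The single exception, at rank 12, had 596 normalized counts in Arrested 1 and 2424 to 2777 in the other 3 Arrested libraries, against 685 in Proliferative 3. It was picked out after its values had been seen. The rule chose the members on group means of these same libraries, so nothing is read from the counts without overlap.

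In an edgeR quasi-likelihood fit of all genes and all 16 libraries, where a call is a Benjamini-Hochberg adjusted p under 0.05, 200 members were called higher in Arrested than in Pruned, against 31.6% of all genes tested. Likewise 200 were called higher in Arrested than in Proliferative, against 30.6% of all genes tested, and 200 were called lower in Reactivated than in Arrested, against 35.8% of all genes. The rule selected on these contrasts, so nothing is read from the counts. The median log2 fold change was 3.05 between Arrested and Pruned, 2.69 between Arrested and Proliferative and -3.11 between Reactivated and Arrested, with median standard errors of 0.28, 0.27 and 0.28. Over all genes tested these medians were -0.10, -0.07 and -0.01. Arrested exceeded Pruned by over 8-fold in 106 members and by over 16-fold in 35.

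**Figure D2:**
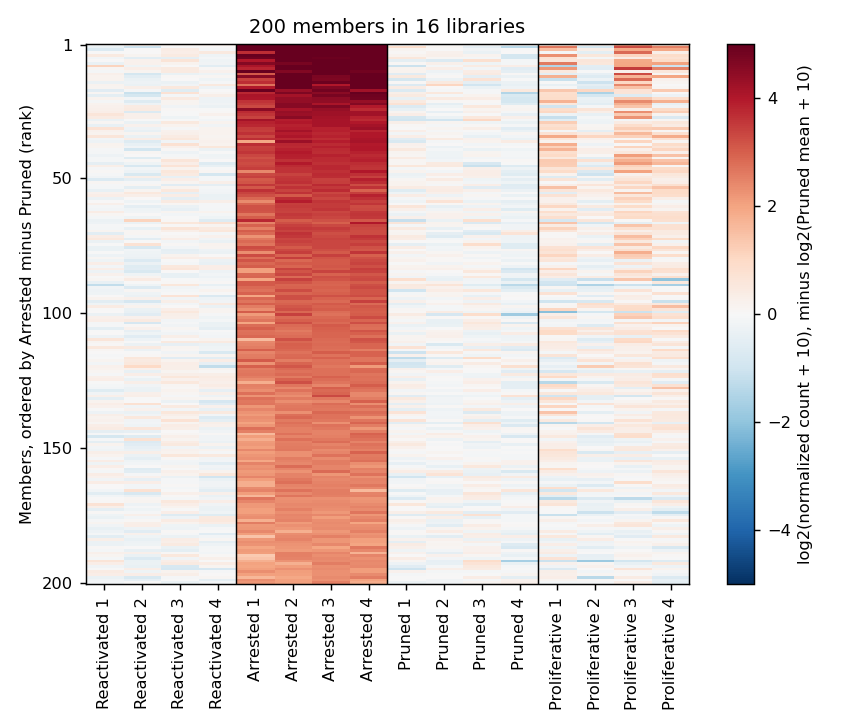
Each row is 1 of the 200 members, ordered by Arrested minus Pruned with the largest difference at the top, and each column is 1 library. Colour gives log2(normalized count + 10) minus log2(Pruned mean + 10), so that white is the Pruned mean, and values beyond 5 in either direction share the end colours. Arrested columns are red throughout, and Arrested 1 had the lowest normalized count of its group in 140 of 200 members. The upper rows are tinted red in Proliferative 1, 3 and 4 but less in Proliferative 2.

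Psat6g018800 had the largest difference between Arrested and Pruned. Its normalized counts were 230, 291, 262 and 276 in Reactivated libraries 1 to 4, and 8594, 20224, 15650 and 17796 in Arrested libraries 1 to 4. In Pruned libraries 1 to 4 they were 211, 237, 235 and 221. In Proliferative libraries 1 to 4 they were 382, 281, 1113 and 407. Reactivated 1 lay within the Pruned range and Reactivated 2, 3 and 4 above it, Proliferative 3 stood apart from its group, and the lowest Arrested library was still far above the highest of the others. The edgeR log2 fold change was 6.07 (SE 0.41) between Arrested and Pruned and -5.87 (SE 0.41) between Reactivated and Arrested, and both contrasts belong to the choice of the gene. Between Reactivated and Pruned it was 0.20 (SE 0.35, edgeR adjusted p = 0.687).

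Psat3g117920 had the highest normalized count of the members in Arrested, and ranked at 124 by its difference. It had 9100, 7122, 11166 and 10056 normalized counts in Reactivated libraries 1 to 4. It had 45426, 46688, 59251 and 51055 in Arrested libraries 1 to 4. It had 9541, 7932, 6463 and 6545 in Pruned and 15300, 8602, 9312 and 12902 in Proliferative, libraries 1 to 4 of each. The 3 active groups overlapped, and all 4 Arrested libraries were higher. The edgeR log2 fold change was 2.70 (SE 0.19) between Arrested and Pruned and -2.43 (SE 0.19) between Reactivated and Arrested. Between Reactivated and Pruned it was 0.27 (SE 0.18, edgeR adjusted p = 0.265), and this gene sits at the upper edge of the window with a difference of 0.296 on the log2(mean + 10) scale.

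**Figure D3:**
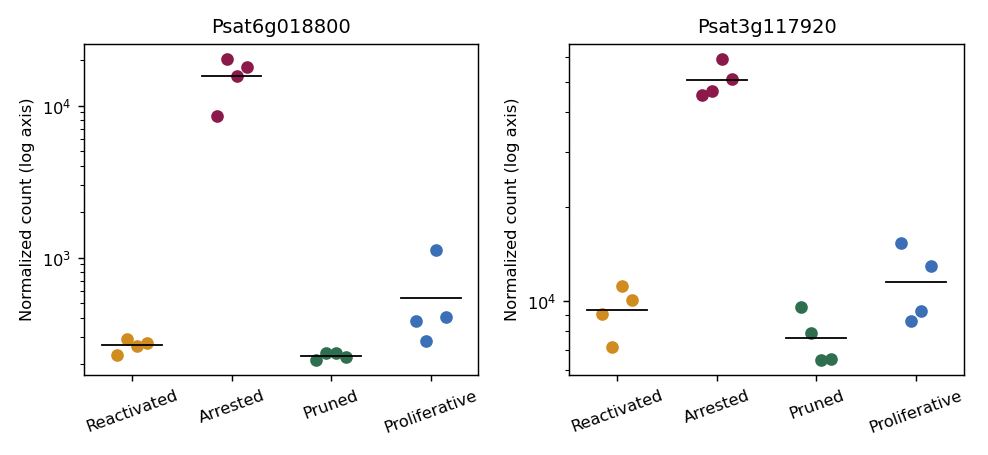
Normalized counts of Psat6g018800 (left) and Psat3g117920 (right) on log axes, with 1 point per library and a line at the mean of each group (n = 4). In both panels the 4 Arrested points are the highest, and Proliferative 3 at 1113 is apart from its group in the left panel.

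At the other end of the scale, the member at rank 200 had 365 to 582 normalized counts in Arrested and 75.5 to 115 in Pruned. The member with the lowest Pruned mean, at rank 148, had 9.06 to 29.7 normalized counts in Reactivated, 122 to 201 in Arrested and 12.2 to 26.8 in Pruned. The member with the lowest Arrested mean, at rank 189, had 18.0 to 27.6 in Reactivated, 94.3 to 167 in Arrested and 12.9 to 29.5 in Pruned. In each of these 3 members the Arrested libraries did not overlap with those of the other groups named. The gene just inside the limit of 200 differed between Arrested and Pruned by 2.169 and the one just outside by 2.161. For the difference from Proliferative these edge values were 2.01 and 2.00, and for the Pruned mean 20.3 and 19.95 normalized counts. At the upper end of the window they were 0.296 inside and 0.303 outside, and at the lower end -0.296 and -0.303.

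Reactivated meristems were close to Pruned meristems in every member, because the rule asked for it. The difference between Reactivated and Pruned had a median of -0.003 on the log2(mean + 10) scale, with 100 members above 0 and 100 below. No member was called between these groups (0 of 200 by edgeR, 0 by DESeq2, and 2 at an unadjusted edgeR p under 0.05), against 40.1% of all genes tested. Missing a call does not show an equal level: the 95% interval of the edgeR log2 fold change lay within 2-fold in both directions for 143 members and was wider for the rest. The return also rests on the scaling. As a share of all counts the members stood at 0.165% to 0.180% in Reactivated and 0.202% to 0.234% in Pruned, without overlap, and when library totals replaced TMM factors, 35 of 200 members were called lower in Reactivated and 0 higher, against 41.0% and 9.50% of all genes tested. With library totals the median of all genes lay at -0.45 between these groups, in place of -0.08 with TMM factors, and the median of the members at -0.40 in place of -0.03.

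The window of 0.3 around Pruned separated the members from other genes raised in Arrested. Among the genes with a Pruned mean of 20 or more, 700 exceeded both Pruned and Proliferative by 2 or more in Arrested. Of these, 209 (29.9%) stood more than 0.3 above Pruned in Reactivated, 224 (32%) within 0.3 of it and 267 (38.1%) more than 0.3 below it. The values ran through the window without a break, with quartiles at -0.61 and 0.42 and a median of -0.09. The members come from the middle of this spread, between edges set by the rule. With a window of 0.15 in place of 0.3, 107 genes met the rule, and 96 of them were members.

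Pruned and Proliferative meristems had both never arrested, and their difference was not one of the conditions. The 2 groups differ at once in plant age and in pruning, which cannot be told apart here. Most members were lower in Pruned than in Proliferative: 161 of 200 by group means, with a median difference of -0.33 on the log2(mean + 10) scale, against 48.8% and 0.01 for all genes tested. By edgeR, 25 members (12.5%) were called lower in Pruned and 2 higher, against 1.75% and 1.94% of all genes tested. All 4 Pruned libraries lay below all 4 Proliferative libraries in 23 members (11.5%, against 3.37% of all genes tested) and above them in 2 (1%, against 4.11%). The median log2 fold change was -0.36 for the members and 0.00 for all genes tested. Taking the genes with the largest Arrested minus Pruned favours low Pruned values, so part of this lean is built into the choice. For the 700 raised genes the limit of 2 was the same in both contrasts, but the minimum mean of 20 applied to Pruned alone. Of these 700 genes, 517 (73.9%) were lower in Pruned, with a median of -0.27. They too were chosen on these group means, so the share is a description. Of the 24 genes that met the rule beyond the limit of 200, 3 (12.5%) were lower in Pruned, with a median of 0.17. Raised genes above the window (74.2% of 209) and below it (74.2% of 267) had much the same share as the 700.

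The count of calls between Pruned and Proliferative depended on the libraries, among the members and among all genes tested. With all libraries 27 members and 3.69% of all genes were called in either direction. Without Proliferative 2 it was 41 members and 4.21% of all genes, and without Proliferative 4 it was 16 and 2.39%. Without Pruned 2 it was 14 members and 2.36% of all genes, and without Pruned 3 it was 16 and 2.40%. A fit restricted to the 8 libraries of these groups called 3 members and 0.980% of all genes. Leaving out Proliferative 3, Proliferative 4 and Pruned 2 together gave 1 member and 0.384% of all genes, in a fit with fewer libraries. That fit kept Proliferative 2, the lowest of its group in 57% of members, and dropped Proliferative 3, the highest in 42%. The labels give no reason for leaving out these libraries as a set. The direction of the median was lower in Pruned with each single library left out, between -0.51 and -0.25.

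The difference between the never-arrested groups was found mainly among the members with the largest difference in Arrested. Of the 25 members called lower in Pruned, 16 stood in ranks 1 to 50 and 0 in ranks 151 to 200. The median Pruned minus Proliferative was -0.82 in ranks 1 to 50, -0.48 in ranks 51 to 100, -0.31 in ranks 101 to 150 and -0.01 in ranks 151 to 200. Here too the choice sets part of the slope, since a member with a small difference from Pruned could not be much higher in Proliferative and still clear the limit of 2. The member with the largest difference, at rank 10, had 42.6 to 89.4 normalized counts in Pruned, and 340, 43.5, 882 and 427 in Proliferative libraries 1 to 4. Proliferative 2 lay within the Pruned range and the other 3 far above it. Its edgeR log2 fold change between Pruned and Proliferative was -2.64 (SE 0.58, edgeR adjusted p = 0.0168). In Psat6g018800 the same contrast was -1.28 (SE 0.34, edgeR adjusted p = 0.0499), and in Psat3g117920 -0.61 (SE 0.18, edgeR adjusted p = 0.0811). The call for Psat6g018800 was lost in 19 of 23 alternatives, with log2 fold changes between -1.39 and -0.58, and Psat3g117920 was called in 3 of 23, with log2 fold changes between -0.72 and -0.60.

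By group means 39 of the 200 members were higher in Pruned, and 2 members were called so. These 2 had edgeR log2 fold changes of 1.07 and 1.20. The member with 1.20 stood at rank 100, with 82.7 to 146 normalized counts in Pruned and 17.7 to 66.5 in Proliferative, and the groups did not overlap. The member at rank 90 had the largest difference in that direction, 1.62 (SE 0.47), and was not called (edgeR adjusted p = 0.0715). It had 105, 117, 43.7 and 22.1 normalized counts in Pruned libraries 1 to 4 and 15.7 to 29.8 in Proliferative, so that Pruned 4 lay inside the Proliferative range.

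**Figure D4:**
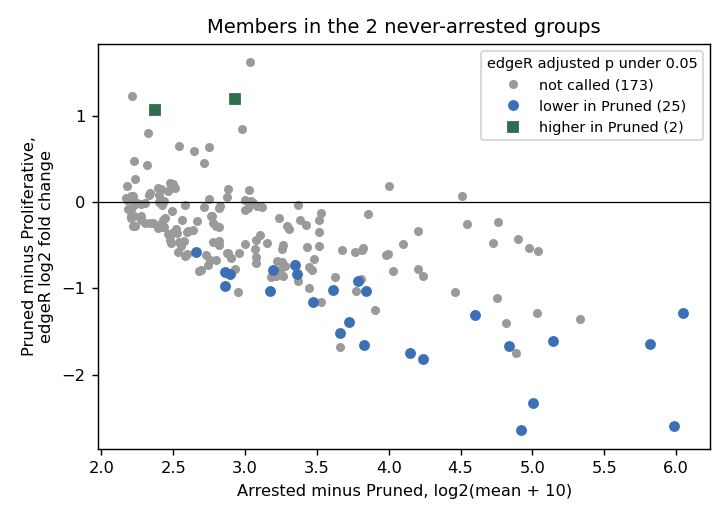
Each point is 1 member. The horizontal axis is Arrested minus Pruned on the log2(mean + 10) scale, the vertical axis the edgeR log2 fold change of Pruned over Proliferative, and colour shows the 25 called lower in Pruned, the 2 called higher and the 173 not called. Most points lie below 0, the lowest to the right, and the empty lower left corner is set by the condition on Arrested minus Proliferative.

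Between Reactivated and Proliferative, 56 members were called lower in Reactivated and 4 higher, against 22.6% and 18.5% of all genes tested, with a median log2 fold change of -0.40 for the members and -0.09 for all genes. This contrast follows from the window around Pruned and from the difference of Pruned and Proliferative, and it shares its Proliferative libraries with that difference. For Psat6g018800 the log2 fold change was -1.08 (SE 0.34, edgeR adjusted p = 0.0190), and for Psat3g117920 it was -0.34 (SE 0.18, edgeR adjusted p = 0.146). The call for Psat6g018800 was lost in 3 of 23 alternatives. Its log2 fold change was -0.47 without Proliferative 3 (edgeR adjusted p = 0.109), -0.995 without Reactivated 1 (edgeR adjusted p = 0.0592) and -0.36 without Proliferative 3, Proliferative 4 and Pruned 2 together. With library totals 114 members were called lower and 1 higher, against 41.9% and 9.52% of all genes tested. With Proliferative 3, Proliferative 4 and Pruned 2 left out together, 27 were called lower and 5 higher, against 15.8% and 13.6% of all genes tested.

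Within the groups the members moved together from library to library, a feature the rule did not use. Arrested 1 was the lowest Arrested library in 140 of 200 members (70%), against 31.9% of all genes tested. Proliferative 2 was the lowest of its group in 114 members (57%), against 25.9% of all genes tested, and Proliferative 3 the highest in 84 (42%), against 17.7%. Pruned 4 was the lowest of its group in 80 members (40%, against 22.7% of all genes) and Reactivated 3 the highest in 79 (39.5%, against 30.1%). The median deviation of the members from their group mean on the log2(normalized count + 10) scale was -0.25 in Arrested 1 and 0.08 to 0.14 in the other 3 Arrested libraries. It was -0.32 in Proliferative 2 and 0.15 in Proliferative 3. For all genes tested the median deviations of the 16 libraries ran from -0.04 to 0.02. The members share libraries and scaling, so these shares describe the libraries and have no test.

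The same libraries stood apart over the 500 other genes raised in Arrested, with median deviations of -0.23 in Arrested 1 and -0.36 in Proliferative 2. Arrested 1 was the lowest of its group in 64.6% of them and Proliferative 2 in 56.8%. Among the members the deviation was largest where the difference in Arrested was largest. In Arrested 1 its median was -0.39 in ranks 1 to 50, -0.27 in ranks 51 to 100, -0.23 in ranks 101 to 150 and -0.16 in ranks 151 to 200. In Proliferative 2 the same medians were -0.70, -0.35, -0.24 and -0.16, and in Proliferative 3 they were 0.67, 0.25, -0.01 and 0.01, in the same order of ranks. The ranks come from group means of these same libraries. A member with a small difference from Pruned could also not be much higher in Proliferative and still clear the limit of 2. The choice may thus set part of these slopes, and the medians by rank are a description. The labels give nothing that separates the libraries of a group, and the cause was not tested.

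**Figure D5:**
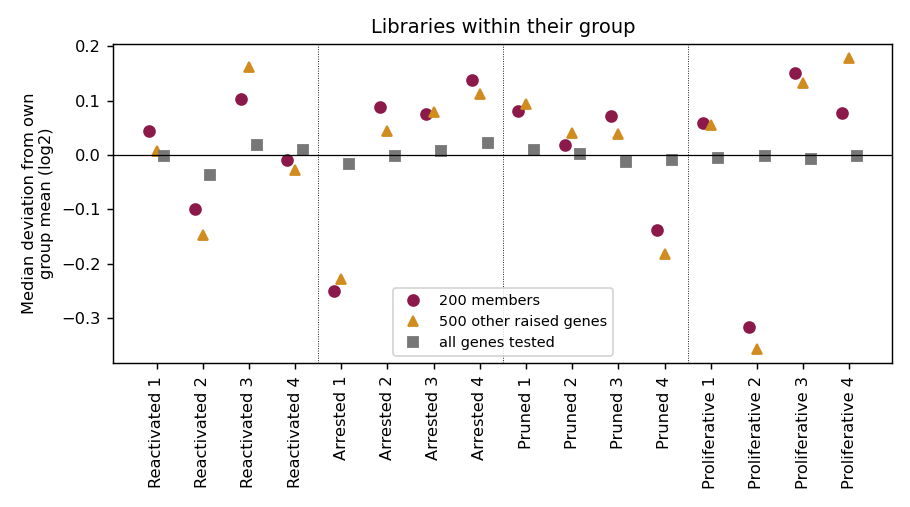
For each library, the median deviation from the mean of its own group on the log2(normalized count + 10) scale, for the 200 members (circles), the 500 other raised genes (triangles) and all 23979 genes tested (squares). Arrested 1 at -0.25 and Proliferative 2 at -0.32 lie lowest for the members, while all genes tested stay between -0.04 and 0.02.

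Single members were most variable between libraries in Proliferative. The median SD of log2(normalized count + 10) was 0.29 for the members and 0.24 for all genes tested in Reactivated, and 0.26 and 0.21 in Arrested. It was 0.33 and 0.27 in Pruned, and 0.41 and 0.28 in Proliferative. An SD over 1 was found in 0 members in Reactivated, against 0.938% of all genes tested, and in 3 (1.5%, against 0.463%) in Arrested. It was found in 2 (1%, against 3.06%) in Pruned and in 16 (8%, against 3.54%) in Proliferative. The widest spread in Proliferative was at rank 2, with 710, 52.5, 1112 and 664 normalized counts in Proliferative libraries 1 to 4, against 46.6 to 108 in Reactivated and 5270 to 9231 in Arrested. The widest spread in Arrested was at rank 16, with 375, 2289, 918 and 2655 normalized counts in Arrested libraries 1 to 4 and 20.3 to 111 in Pruned. In both members Arrested stayed above every other library.

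The IDs of the members were spread over all 8 prefixes in use, and the table does not say what a prefix or number stands for. The prefix Psat3g held 32 members (16%) and 10.9% of all genes tested, Psat4g held 19 (9.5%) and 12.3%, and the remaining prefixes differed by smaller margins. No pair of members had neighbouring numbers among all IDs, and 1 pair was neighbouring among the IDs tested. Counts were made without regard to strand, so reads of an overlapping or antisense neighbour cannot be told apart from those of a member, and near-identical copies are uncertain.

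Membership depended on single libraries at the edges of the rule. When each of the 16 libraries was left out in turn, 206 to 242 genes met the rule, and between 158 and 199 of the 200 members still did. In all 16 settings 80 members met it. The fewest remained without Pruned 1 (158) and Pruned 3 (164), and the most without Arrested 1 (199). With TMM factors 188 members still met the rule, and with library totals 92 did, since that scaling moves Reactivated against Pruned.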

How the data were processed

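The authors deposited raw counts of reads per gene, 1 column per library, which per their name came from HTSeq run in its unstranded mode. The libraries were strand-specific, poly(A)-enriched and run on a NovaSeq instrument, per the labels' protocols. The tools listed are HISAT2, HTSeq, cutadapt and DESeq2, per the submitters' processing notes. Versions, genome build and annotation are not given in the sources used here. All 48559 rows were genes, and no 2 libraries were identical.

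Tests used edgeR 4.0.16 under R 4.3.3 (filterByExpr by group, TMM, glmQLFit, glmQLFTest; group as the only term, 16 libraries, 6 pairs, Benjamini-Hochberg over 23979 genes), after tests on simulated data. DESeq2 1.42.0 was an alternative. Standard errors are the log2 fold change divided by the square root of F. Median-of-ratios size factors used 21975 genes. The labels say that libraries are biological replicates, without stating separate plants. Members and lists were chosen with earlier results of these data known. The IDs printed are the members with the largest Arrested minus Pruned and the highest Arrested mean. Other members were described by extremes of level and of Pruned minus Proliferative, and those at ranks 2, 12, 16 and 100 were added after their values were seen. Gene and marker lists were not run for want of names.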

Additional observations from a re-analysis of the deposited data

Results flagged for a closer look

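Psat6g018800 in Proliferative 3 stood apart from its group, with 1113 normalized counts against 281 to 407 in Proliferative 1, 2 and 4. Its gap to the nearest library, relative to the range of the group, exceeded the limit of Dixon's test. Of 12 sets of 4 libraries checked, for the share of the members and for both named genes, this was the only one beyond that limit; chance gives about 1 in 20.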

How the results depend on the processing

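Calls between Arrested and Pruned, Arrested and Proliferative, and Reactivated and Arrested are fixed by the rule, so nothing about stability is read from them. When library totals replaced TMM factors, the medians of the members were 3.25 between Arrested and Pruned (3.05 with TMM), -3.69 between Reactivated and Arrested, -0.40 between Reactivated and Pruned and -0.78 between Reactivated and Proliferative, while all genes tested had medians of 0.10, -0.58, -0.45 and -0.46. On that scale 35 members were called between Reactivated and Pruned and 115 between Reactivated and Proliferative, and the contrast of Reactivated and Pruned was reversed for Psat6g018800 (-0.18) and Psat3g117920 (-0.11); the shift of all genes comes with the scaling itself. Without Proliferative 3, Proliferative 4 and Pruned 2 together, 1 member was called between Reactivated and Pruned, 32 between Reactivated and Proliferative and 1 between Pruned and Proliferative, in a fit with fewer libraries. Calls between Pruned and Proliferative were 27 with edgeR, 43 with DESeq2, 3 with only the 8 libraries of the pair and 17 with a replicate block; the cause was not tested. The labels do not say whether a replicate number marks a shared batch. Same-numbered libraries of 2 groups had correlations of their deviations between -0.32 and 0.59, over 0.1 in 3 of 24. The highest were 0.59 for Reactivated 2 with Proliferative 2 and 0.54 for Pruned 1 with Proliferative 1. Libraries of unlike number were not compared, so a pairing by number was not tested. With the block 0 members were called between Reactivated and Pruned and 57 between Reactivated and Proliferative. Leaving out 1 library at a time gave 14 to 41 calls between Pruned and Proliferative, 47 to 67 between Reactivated and Proliferative and 0 to 2 between Reactivated and Pruned. The rule was met by 107 genes with a window of 0.15, by 387 with a window of 0.6 and by 94 with a Pruned mean of 100 or more. Without the 10 members with the highest Arrested mean the shares of counts were 0.0960% in Reactivated, 1.36% in Arrested, 0.126% in Pruned and 0.169% in Proliferative. Depth limits members with few reads in active groups, where the smallest count was 4.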

Other observations

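In Proliferative, 18 of 200 members (9%) had a library beyond the limit of Dixon's test on either side, and in 12 of these it was Proliferative 3 on the high side. In Arrested, 11 of 200 (5.5%) had such a library, and in 8 of these it was Arrested 1 on the low side. Chance gives about 1 flag in 20 sets of 4 libraries, counting any library and either side. The same flag fell on Proliferative 3, high, in 1.79% of all genes tested and on Arrested 1, low, in 0.746%. For the other Proliferative libraries, 1, 2 and 4, the high flag fell in 1.87%, 0.680% and 0.822% of all genes tested. The low flag fell on Proliferative 1 to 4 in 0.613%, 0.275%, 0.225% and 0.379%. In Arrested 1 to 4 the high flag fell in 1.33%, 0.801%, 0.788% and 1.77%. The low flag fell on Arrested 2 to 4 in 0.396%, 0.271% and 0.655%. The totals of 9% and 5.5%, over any library and either side, are not read as an excess over all genes. For single libraries, the 12 of 200 members with Proliferative 3 high lay above the 1.79% of all genes tested. Likewise the 8 of 200 with Arrested 1 low lay above the 0.746%. The members share libraries, and this difference was not tested. The 24 genes that met the rule but lay below the limit of 200 had differences between Arrested and Pruned of 2.02 to 2.16 on the log2(mean + 10) scale.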
